A study of Homo sapiens with 6 samples.

Results

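A set of 10 transcription factor genes that act in the neural crest and in the epithelial-to-mesenchymal transition (EMT) was followed in SK-MEL-28 cells, an established human melanoma cell line. The genes were SOX2, SOX4, SOX9, SOX10, PAX3, TFAP2A, SNAI2, ZEB1, ZEB2 and FOXD3, taken by name from a table of 60504 genes. The study asked how HDAC8, a histone deacetylase that also acts on other proteins, alters the state of melanoma cells, and RNA-seq was carried out on 3 libraries labelled EV, from control cells given the empty plasmid, and on 3 libraries labelled HDAC8, from cells given an HDAC8 plasmid. According to the methods, plasmids were introduced by lipid transfection and kept under hygromycin, a drug that kills cells without the resistance gene, so both groups carry a plasmid and share the drug. Cells were harvested from flasks before they were confluent. Replicates carry the numbers 1 to 3 in the labels, which do not state whether these were separate cultures, so p-values measure the spread between these libraries, which may be technical. Library totals lay between 20850018 and 29822917 counts.

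The neural crest is a migratory cell population of the embryo that gives rise to melanocytes, peripheral glia and much of the facial skeleton. TFAP2A, PAX3, FOXD3, SOX9, SOX10 and SNAI2 act in sequence in its formation, and SOX10 and PAX3 together switch on MITF, the master regulator of the melanocyte lineage. SNAI2, ZEB1 and ZEB2 bind E-boxes, short motifs in the promoters of epithelial genes such as CDH1 (E-cadherin), and repress them as cells loosen their contacts. In melanoma, SNAI2 and ZEB2 are known from differentiated cells and ZEB1 from dedifferentiated ones.

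HDAC8 itself (ENSG00000147099, chromosome X, 72329516 to 72573101) was measured first as a check of the labels. It was present at 16.6, 15.2 and 11.8 CPM (counts per 1000000 counts of the library) in the EV libraries and at 14.2, 15.2 and 13.5 CPM in the libraries labelled HDAC8. The groups overlapped, and the log2 fold change was -0.024 (SE 0.13, adjusted p = 0.924, edgeR's quasi-likelihood test). The gene therefore did not check the labels, and the plasmid was not measured apart from the chromosomal gene. Neither group held detectably more HDAC8 RNA, so exchanging the labels would not give a rise of HDAC8 either. Which libraries carried the HDAC8 plasmid rests on the labels alone, and if these were exchanged, each rise and fall reported here would be reversed. Every fold change below sets the HDAC8-labelled libraries over the EV-labelled ones. The 10 melanocyte markers listed, which include the member SOX10, were all tested, and their summed level was 6695 to 7101 CPM in the EV libraries and 7735 to 8298 CPM in the libraries labelled HDAC8. Most of this sum and of its rise was PMEL, a melanosome protein, at 4149 ± 152 against 5254 ± 272 CPM (SD, n = 3). Without SOX10 and PMEL, the other 8 markers summed to 2081 to 2140 CPM against 1953 to 1989.8 CPM, the opposite direction. PMEL was left out after its values were seen. These 8 moved both ways. TYR rose from 329 ± 6.79 to 447 ± 6.86 CPM and DCT fell from 233 ± 10.7 to 68.3 ± 2.07 CPM (SD, n = 3). Of all 10 markers, 6 had a positive log2 fold change, and the median was 0.16. Of 8 keratinocyte markers, KRT1, DSG3 and IVL were at 0 in every library, and the sum of the list was 9.15 to 10.5 CPM against 6.51 to 8.90 CPM. Of 8 endothelial and blood markers, CD3E was at 0 and the sum was 29.7 to 30.6 CPM against 27.3 to 31.9 CPM. The 8 fibroblast markers summed to 42.4 to 45.5 CPM in the EV libraries and 55.6 to 61.0 CPM in the libraries labelled HDAC8, with TWIST2 at 0, and most of the sum was LUM, a matrix proteoglycan, at 36.7 ± 1.70 against 49.7 ± 2.27 CPM (SD, n = 3). The part of this rise in the results below was not tested. In bulk RNA, fewer cells of a kind and less RNA per cell cannot be told apart.

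FOXD3 fell and SOX4 rose, and these were the members past both thresholds used here, an adjusted p of 0.05, corrected across every gene tested, and a log2 fold change of 0.58 in either direction. The study's methods name these thresholds and it also counts genes by an uncorrected p, under which SOX4 and FOXD3 were again the members called. Of the 10 members, 9 passed edgeR's filter on low counts and SOX2 did not. Among the 9, 1 was called higher and 1 lower, against 4.07% and 3.45% of all 16195 tested genes, or 7.52% in either direction. By adjusted p alone 6 of the 9 passed, with SOX4, SOX10, SOX9 and ZEB2 higher and FOXD3 and TFAP2A lower, against 22.7% of all tested genes. SNAI2, PAX3 and ZEB1 did not pass. The groups did not overlap in 7 members, against 38.0% of all tested genes. The median log2 fold change of the 9 was 0.10 and that of all tested genes 0.0091, and the median absolute change was 0.23 against 0.19.

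**Figure D1:**
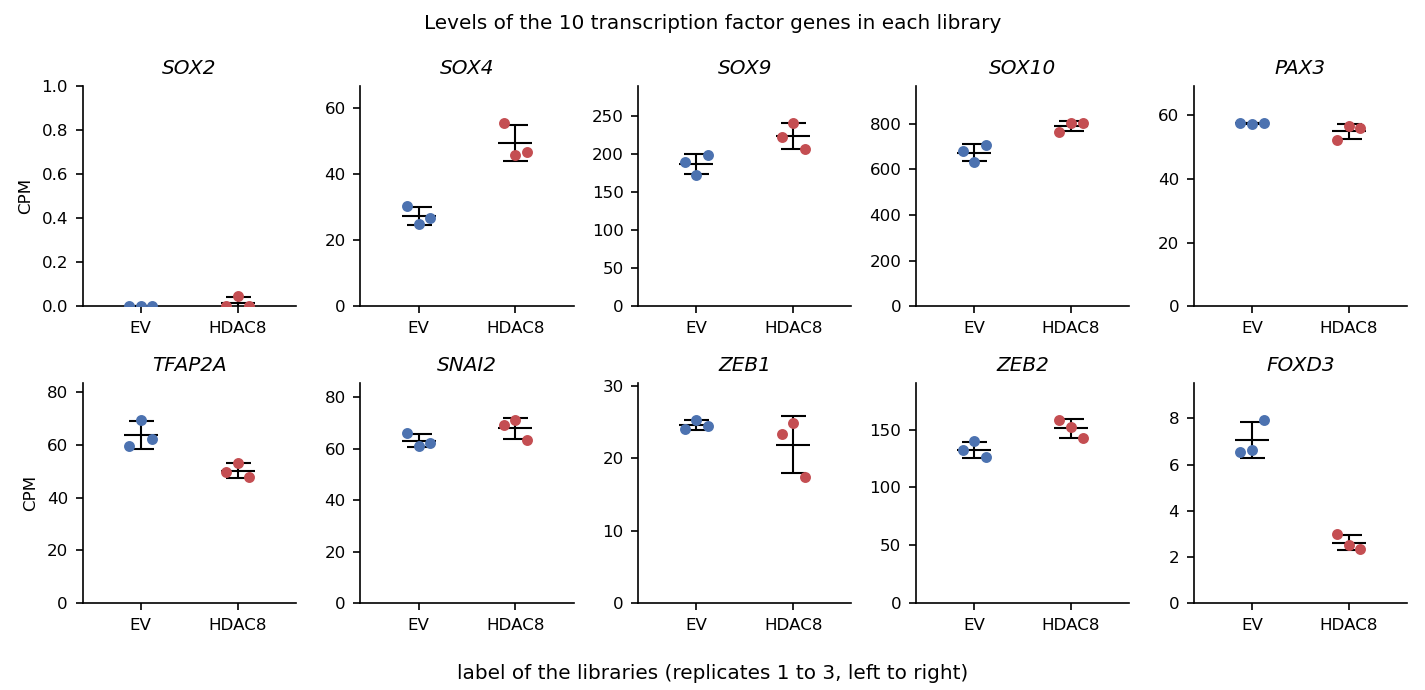
CPM of each of the 10 members (vertical axes, starting at 0, 1 scale per gene) in the 3 EV libraries (blue) and the 3 libraries labelled HDAC8 (red), with the mean and SD in black. The groups separate most widely for SOX4, at 25.0 to 30.3 against 45.8 to 55.5 CPM, and for FOXD3, at 6.55 to 7.93 against 2.37 to 2.99 CPM, and SOX2 has 1 count in all.

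The stretches of 250 bases before the transcription start of FOXD3 and of SOX4 are shown because these members changed most. They were taken from RefSeq on GRCh38.p14, whose table matched 7 of the 10 members, and both lie on the plus strand. In FOXD3 the capitals mark TGACGTCA, a cAMP response element, from -72 to -65 bases of the start, and CACGTG, the E-box read by MITF, from -56 to -51. In SOX4 the capitals mark 4 CCAAT boxes on either strand, which open at -181, -114, -57 and -10.
FOXD3, chr1:63322317-63322566: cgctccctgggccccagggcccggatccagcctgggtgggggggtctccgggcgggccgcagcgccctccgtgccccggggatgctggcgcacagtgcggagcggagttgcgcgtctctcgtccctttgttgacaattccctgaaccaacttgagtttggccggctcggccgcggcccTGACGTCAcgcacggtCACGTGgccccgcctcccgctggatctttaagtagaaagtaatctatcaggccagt
SOX4, chr6:21593501-21593750: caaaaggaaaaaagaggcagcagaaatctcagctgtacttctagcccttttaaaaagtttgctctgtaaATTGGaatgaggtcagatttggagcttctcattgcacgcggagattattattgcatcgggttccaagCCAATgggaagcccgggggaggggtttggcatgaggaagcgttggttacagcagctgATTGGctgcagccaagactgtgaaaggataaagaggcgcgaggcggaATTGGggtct

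These matches are descriptions of the letters and not of binding. Across the same 250 bases of 27305 RefSeq promoters, searched on both strands, 1.77% held TGACGTCA, 6.49% held CACGTG and 33.0% held CCAAT. The SOX4 stretch was unusual in holding 4 CCAAT boxes, a number reached in 0.930% of promoters, although this motif was picked after the sequence was seen. PAX3 and SOX2 held CCAAT as well. Of the other motifs searched, CAGGTG, an E-box read by ZEB and SNAI factors, lay before ZEB1 (17.5% of all promoters), and GCCNNNGGC, read by TFAP2 factors, lay before SOX2 (19.7%). The AP-1 element TGANTCA and the SOX motif ACAATG were found in 0 of the 7, against 6.60% and 9.45% of all promoters. The FOXD3 stretch had a G and C content of 67.6% and the SOX4 stretch one of 48.8%, on either side of the median of 58%.

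FOXD3 (ENSG00000187140, chromosome 1, 63322567 to 63325128 in GENCODE 44 on GRCh38) is a forkhead factor that marks early neural crest and holds back the melanocyte fate. Among the tested members it was the lowest per length and changed most. The EV libraries held 6.55, 6.64 and 7.93 CPM, from 141, 147 and 195 counts, and the libraries labelled HDAC8 held 2.99, 2.52 and 2.37 CPM, from 88, 51 and 55 counts. Every library labelled HDAC8 was below every EV library. FOXD3 fell by 1.42 on the log2 scale (SE 0.19, 95% interval -1.84 to -0.99, adjusted p = 0.000266, edgeR), to 0.374 of its EV level. FOXD3-AS1, the antisense RNA beside it, had 27, 17 and 13 counts in the EV libraries and 13, 4 and 15 in the libraries labelled HDAC8. These ranges overlapped and the log2 fold change of -0.96 did not pass (SE 0.54, adjusted p = 0.248). The strand setting of the counting is not given in the sources used here. Where a gene and its antisense partner overlap, their reads therefore cannot be told apart.

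SOX4 (ENSG00000124766, chromosome 6, 21593751 to 21598619), an SoxC factor of progenitor cells that is often raised in tumours and acts in the EMT program of TGF-beta, was the member that rose most. Its level was 30.3, 25.0 and 26.8 CPM in the EV libraries and 55.5, 45.8 and 46.6 CPM in the libraries labelled HDAC8. The groups stood apart by more than the spread within either. The log2 fold change was 0.85 (SE 0.095, 95% interval 0.65 to 1.06, adjusted p = 5.06e-05, edgeR), or 1.81-fold. SOX11, a SoxC paralog named after its values were seen, had at most 6 counts in the EV libraries and 54, 0 and 2 in the libraries labelled HDAC8, so that a single library held nearly all of them.

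SOX10, SOX9 and SOX8 form the SoxE group, which drives neural crest, glial and melanocytic genes. SOX10 (ENSG00000100146, chromosome 22, 37970686 to 37987422) keeps melanocytes and melanoma cells in their lineage and had 681, 631 and 707 CPM in the EV libraries and 765, 803 and 804 CPM in the libraries labelled HDAC8. It rose in each of the latter above all of the former, by a log2 fold change of 0.23 (SE 0.049, adjusted p = 0.00463, edgeR). SOX9 (ENSG00000125398, chromosome 17, 72121020 to 72126416), a factor of cartilage and early neural crest, had 190.0, 173 and 198 CPM against 223, 241 and 207 CPM. The groups did not overlap, though the closest libraries were only 198 and 207 CPM apart. The log2 fold change was 0.26 (SE 0.065, adjusted p = 0.0141, edgeR), and it lost its call without EV replicate 2 (adjusted p = 0.0700) or without HDAC8 replicate 2 (adjusted p = 0.0724). Both changes were below the fold threshold.

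SOX8 (ENSG00000005513), the remaining SoxE gene, moved the other way. It had 11.2, 10.9 and 10.01 CPM in the EV libraries and 3.06, 3.55 and 5.39 CPM in the libraries labelled HDAC8, a fall of 1.42 on the log2 scale (SE 0.20, adjusted p = 0.000324, edgeR). SOX10 in melanoma cells is often set against SOX9, and their ratio within a library does not depend on scaling. SOX10 counts were 3.58, 3.64 and 3.57 times those of SOX9 in the EV libraries and 3.43, 3.33 and 3.88 times in the libraries labelled HDAC8. The latter spanned the former on both sides, and the mean log2 ratio differed by -0.023 (1.85 ± 0.017 against 1.82 ± 0.12, SD, n = 3, two-sided exact permutation test, p = 0.8).

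SOX2 (ENSG00000181449, chromosome 3, 181711925 to 181714436), a factor of neural stem cells and of pluripotent cells, was not detectable. It had 0 counts in 5 libraries and 1 count in HDAC8 replicate 2, below a floor of 3 counts, which corresponded to 0.102 to 0.148 CPM per library and covers counting error only. Of the 15 further SOX genes in the table, 7 were tested. SOX5, which was chosen after its values were seen, rose from 80.4 ± 2.49 to 153.7 ± 3.93 CPM (SD, n = 3), with a log2 fold change of 0.94 (SE 0.050, adjusted p = 9.7e-08, edgeR). The genes around SOX5 on the chromosome were raised by a similar amount, as given below. SOX8 fell, SOX6 and SOX13 were lower by adjusted p only, and 3 did not pass.

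**Figure D2:**
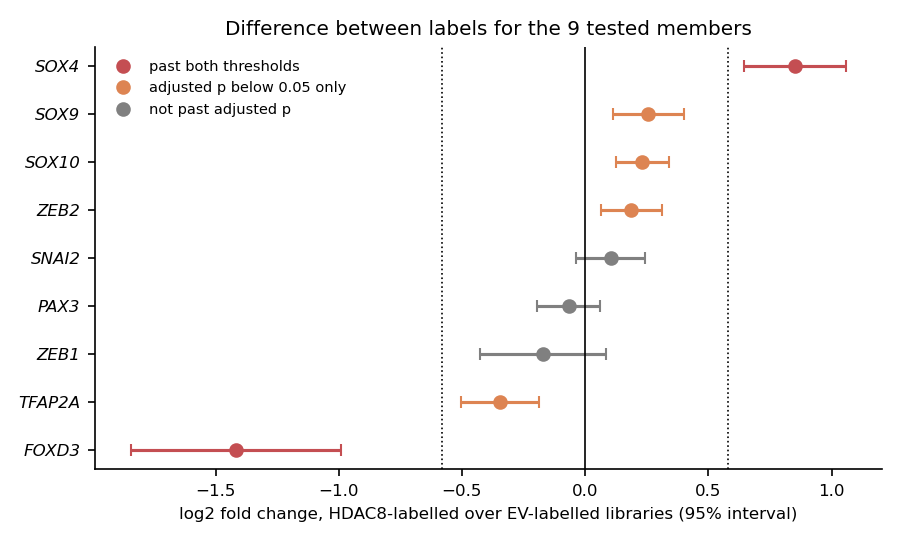
Log2 fold change (horizontal axis, libraries labelled HDAC8 over EV) of the 9 tested members with its 95% interval, and dotted lines at the fold threshold of 0.58 on both sides. Only the interval of SOX4, from 0.65 to 1.06, and that of FOXD3, from -1.84 to -0.99, lie wholly beyond a dotted line.

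TFAP2A (ENSG00000137203, chromosome 6, 10393186 to 10419659) acts at the border of the neural plate and later with MITF on pigment genes. It had 59.3, 69.4 and 62.2 CPM in the EV libraries and 49.6, 53.1 and 47.8 CPM in the libraries labelled HDAC8. The groups did not overlap, and it fell by 0.34 on the log2 scale (SE 0.072, 95% interval -0.50 to -0.19, adjusted p = 0.00475, edgeR), short of the fold threshold. TFAP2C, a paralog named after its values were seen, was higher by adjusted p only, at 56.2 ± 1.94 against 74.8 ± 4.73 CPM (SD, n = 3, log2 fold change 0.41, adjusted p = 0.000647, edgeR), and TFAP2B had 0 counts in every library.

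PAX3 (ENSG00000135903, chromosome 2, 222199887 to 222298998) is a paired-box factor that acts with SOX10 on MITF. PAX3 had 57.7, 57.4 and 57.7 CPM in the EV libraries and 52.4, 56.8 and 56.0 CPM in the libraries labelled HDAC8. The SD was 0.28% of the mean in the former and 4.32% in the latter, so the closeness of the 3 EV values is not read as a trait of the gene. Although these ranges did not overlap, the log2 fold change of -0.066 did not pass (95% interval -0.19 to 0.062, adjusted p = 0.477, edgeR). The interval lies inside the fold threshold on both sides.

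Among the EMT factors, SNAI2 (Slug, ENSG00000019549, chromosome 8, 48917598 to 48921740), a zinc-finger repressor needed by migrating crest cells and melanoblasts, had 66.0, 61.3 and 62.3 CPM in the EV libraries and 69.2, 71.3 and 63.2 CPM in the libraries labelled HDAC8. The ranges overlapped and the log2 fold change of 0.10 did not pass (95% interval -0.035 to 0.24, adjusted p = 0.286, edgeR). Paralogs and partners outside the rule for naming genes were chosen after their values were seen. SNAI1, its paralog, had 10.1 ± 0.977 against 10.04 ± 0.891 CPM (SD, n = 3), and TWIST1 had 8.77 ± 1.37 against 9.29 ± 0.943 CPM. Neither passed, with log2 fold changes of -0.017 and 0.079.

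ZEB2 (ENSG00000169554, chromosome 2, 144364364 to 144521057) had 132, 139.7 and 126 CPM in the EV libraries and 158, 152 and 143 CPM in the libraries labelled HDAC8. The groups lay side by side without overlap, and the log2 fold change was 0.19 (SE 0.057, adjusted p = 0.0330, edgeR). This call was lost when EV replicate 1 (adjusted p = 0.114), EV replicate 3 (0.162), HDAC8 replicate 1 (0.124) or HDAC8 replicate 2 (0.109) was left out, and with scaling by library totals only (0.0747). ZEB1 (ENSG00000148516, chromosome 10, 31318495 to 31529814) had 24.0, 25.3 and 24.5 CPM against 23.4, 24.9 and 17.5 CPM. Only HDAC8 replicate 3 lay clearly below the other libraries, and the log2 fold change of -0.17 did not pass (95% interval -0.42 to 0.087, adjusted p = 0.349, edgeR).

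The balance of these paralogs is followed in melanoma because they mark different states. ZEB2 counts were 5.49, 5.51 and 5.14 times those of ZEB1 in the EV libraries and 6.76, 6.11 and 8.17 times in the libraries labelled HDAC8. All 3 of the latter were above the former, by 0.37 in the mean log2 ratio (two-sided exact permutation test, p = 0.1, the smallest that 3 against 3 can give). ZEB1-AS1, the antisense RNA at the ZEB1 promoter, had 3.63 ± 0.196 against 3.67 ± 0.368 CPM (SD, n = 3). Of 9 noncoding genes listed with the members, 7 were found in the table by name. Among the 7, MIR200CHG hosts a microRNA that targets ZEB1 and ZEB2, is not a partner of a member's own locus and had 0 counts in every library. The 4 of the 7 that were tested, FOXD3-AS1, ZEB1-AS1, ZEB2-AS1 and TFAP2A-AS1, had 0 calls by edgeR and 0 with an unadjusted p below 0.05, the lowest being 0.105 for FOXD3-AS1.

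Per length of the canonical transcript, SOX10 was far above the other members in the EV libraries, at 233 ± 13.4 CPM per kilobase (SD, n = 3). It was followed by SOX9 at 47.6, SNAI2 at 29.0, TFAP2A at 20.2, PAX3 at 17.2, ZEB2 at 14.3, SOX4 at 5.62, ZEB1 at 4.15 and FOXD3 at 2.75 CPM per kilobase, with SOX2 at 0. No neighbours in this order overlapped between libraries. In the libraries labelled HDAC8, SOX10 stood at 274 ± 7.61 and FOXD3 at 1.02 ± 0.126 CPM per kilobase, and PAX3, ZEB2 and TFAP2A overlapped, at 16.4, 16.3 and 15.96. This order depends on the length used. Over the union of all annotated exons, a length chosen after the data were seen, the EV levels were 139 for SOX10, 47.6 for SOX9, 19.3 for SNAI2, 7.74 for TFAP2A, 7.25 for PAX3, 5.62 for SOX4, 5.07 for ZEB2, 2.85 for ZEB1 and 2.75 CPM per kilobase for FOXD3. SOX10 and SOX9 stayed at the top, their gap narrowed, and ZEB2 moved below SOX4.

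**Figure D3:**
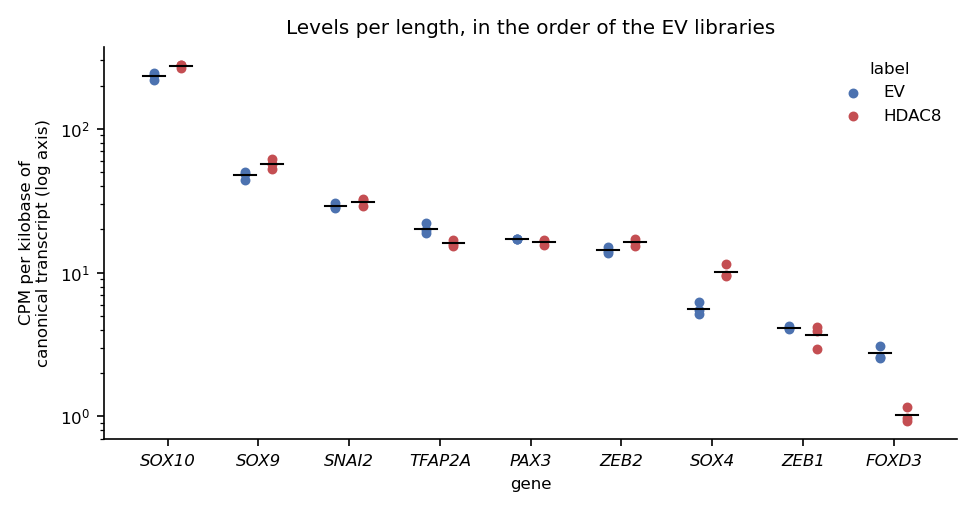
CPM per kilobase of canonical transcript (vertical log axis) for 9 members in each library, ordered by the EV mean, with black bars at the group means. SOX2 is left out because most of its values are 0, which a log axis cannot show. SOX10 stands at 233 in the EV libraries against 47.6 for SOX9, and the gap between the groups is widest for FOXD3, at 2.75 against 1.02.

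Of 33 further neural crest factors, 29 were tested, and 5 were called higher and 5 lower. This was 34.5%, against 7.52% of all tested genes. This list and those below were chosen with earlier results of these data known, so such shares are descriptions. POU3F1, a POU factor of Schwann cells, rose from 4.27 ± 0.814 to 10.7 ± 0.382 CPM (SD, n = 3, log2 fold change 1.33), and NR2F1, an orphan nuclear receptor active in crest, rose from 1.38 ± 0.290 to 2.99 ± 0.0318 CPM (1.11). ID3, an inhibitor of bHLH factors that keeps crest progenitors cycling, fell from 79.2 ± 1.06 to 35.7 ± 2.52 CPM (log2 fold change -1.148). EGR2, a regulator of myelination, fell from 5.35 ± 0.875 to 2.55 ± 0.445 CPM, and DLX5, a homeobox factor of the facial skeleton, fell from 1.85 ± 0.247 to 0.769 ± 0.222 CPM. SOX8 and SOX5 also belong to this list, and LEF1, ALX1 and OLIG2, named after their values were seen, were called with log2 fold changes of 0.66, 0.63 and -4.85, the last on at most 34 counts a library. OLIG2 passed the filter on low counts only through the EV libraries, where it was high, so its call is a description. The median of the list was 0.023.

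Of 13 EMT factors beyond the members, 8 were tested and PRRX1 alone was called, or 12.5% against 7.52% of all tested genes. SNAI1 and TWIST1 are in this list and also in that of the neural crest factors. PRRX1, a homeobox factor of mesenchyme that was chosen here after its values were seen, had 3, 0 and 4 counts in the EV libraries and 56, 36 and 44 in the libraries labelled HDAC8 (adjusted p = 0.000461, edgeR). PRRX1 passed the filter on low counts only through the libraries labelled HDAC8, where it was high. Its call and the share of 12.5% are therefore descriptions. Of 11 epithelial factors, which oppose this program, 3 were tested and 2 fell, against 3.45% of all tested genes called lower. GRHL1 fell from 9.22 ± 0.381 to 5.65 ± 0.143 CPM and KLF5 from 10.5 ± 1.11 to 6.24 ± 0.749 CPM (SD, n = 3), with log2 fold changes of -0.71 and -0.75.

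The genes that these factors act on moved in both directions. Of 14 epithelial genes, 5 were tested and 2 fell, against 3.45% of all tested genes called lower. PATJ, a gene of this list named after its values were seen, was higher by adjusted p only (log2 fold change 0.34, adjusted p = 0.0111, edgeR), and 2 did not pass. DSP, the desmosomal plaque protein desmoplakin, fell from 8.78 ± 0.861 to 1.49 ± 0.151 CPM (SD, n = 3, log2 fold change -2.55), and ESRP1, a splicing factor of epithelial cells that ZEB1 represses, fell from 14.2 ± 1.30 to 6.24 ± 0.723 CPM (-1.18). CDH1 had 1, 4 and 0 counts in the EV libraries and 0 in each library labelled HDAC8, which is too few to test. Of 14 mesenchymal genes, 11 were tested, with 1 higher and 2 lower, or 27.3% against 7.52% of all tested genes. CDH2 (N-cadherin) rose from 44.4 ± 1.73 to 67.3 ± 0.952 CPM (0.60), whereas FN1 (fibronectin) fell from 7485 ± 92.3 to 2861 ± 42.3 CPM (-1.39) and S100A4 from 4.71 ± 0.152 to 2.25 ± 0.750 CPM (-1.07). VIM (vimentin) was lower by adjusted p only, at 3597 ± 89.5 against 2878 ± 77.4 CPM (-0.32, adjusted p = 6.11e-05, edgeR).

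Of 20 genes known as targets of SOX10 or PAX3, 18 were tested. At both thresholds 3 were higher and 4 lower, or 38.9% against 7.52% of all tested genes. A further 4 in each direction passed by adjusted p only. ERBB3, a neuregulin receptor of crest and glial cells, rose from 287 ± 1.26 to 470.0 ± 11.6 CPM (SD, n = 3, log2 fold change 0.71), and NES (nestin), an intermediate filament of progenitor cells, from 5.49 ± 1.12 to 9.46 ± 0.581 CPM (0.79). DCT, an enzyme of melanin synthesis, fell from 233 ± 10.7 to 68.3 ± 2.07 CPM (-1.77), the myelin protein PMP22 fell with a log2 fold change of -0.62, and MET, the receptor of hepatocyte growth factor, fell with one of -0.58. The third higher gene was TYRP1, a melanosomal enzyme named after its values were seen, at 5, 12 and 9 counts against 46, 31 and 19. TYRP1 passed the filter on low counts through the libraries labelled HDAC8, where it was high, so its call is a description. MITF had 952.5, 926 and 963 CPM in the EV libraries and 879, 870.2 and 826 CPM in the libraries labelled HDAC8. It was lower in every one of the latter, with a log2 fold change of -0.14 (SE 0.041, adjusted p = 0.0263, edgeR). Of 15 co-repressors and regulators of the members, all were tested and 1 was called, or 6.67% against 7.52% of all tested genes. It was CITED2, a coactivator of TFAP2 factors, at 8.12 ± 1.15 against 14.2 ± 2.25 CPM (0.81).

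**Figure D4:**
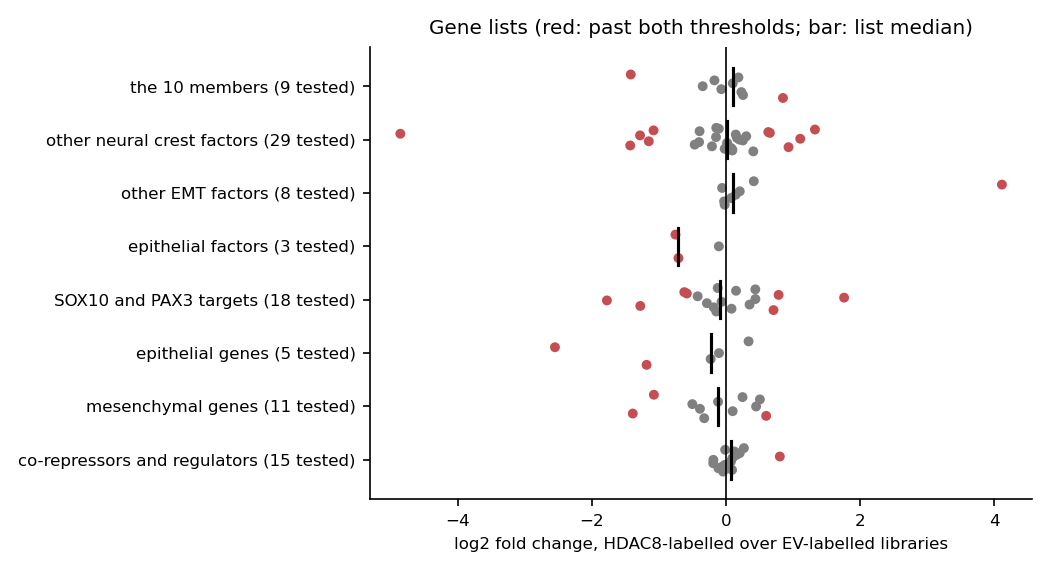
Log2 fold change (horizontal axis, libraries labelled HDAC8 over EV) of each tested gene in 8 lists. Genes past both thresholds are red and the list median is a black bar. Some genes, among them SNAI1, TWIST1 and MITF, are in more than 1 list and are drawn in each. The median of the members is 0.10 and that of the further neural crest factors 0.023, and called genes lie on both sides of 0 in the members, the further neural crest factors, the SOX10 and PAX3 targets and the mesenchymal genes.

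The genes next to the members were examined within 2 Mb on either side, for tested genes whose mean reached 1 CPM. This window and the genes named from it were chosen after values were seen. SOX4 had 5 such neighbours with a median log2 fold change of -0.018, and CASC15, a long noncoding RNA gene 65.6 kb beyond it, was the one called. CASC15 had 17, 14 and 26 counts in the EV libraries and 138, 65 and 93 in the libraries labelled HDAC8 (log2 fold change 2.25, adjusted p = 0.000270, edgeR).

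TEX41, a noncoding RNA gene 145 kb from ZEB2, had 4, 4 and 3 counts in the EV libraries and 85, 67 and 55 in the libraries labelled HDAC8 (log2 fold change 4.10, adjusted p = 2.21e-05, edgeR). KYNU, an enzyme of tryptophan breakdown in the same window, had 0, 2 and 4 counts against 87, 58 and 41. TEX41 and KYNU passed the filter on low counts only through the libraries labelled HDAC8, where they were high, so their calls are descriptions. GTDC1, which lies 31.8 kb on the other side of ZEB2, had a log2 fold change of -0.060 and did not pass. LINC00518, 9.60 kb from TFAP2A, was higher (0.91) although TFAP2A was lower, and EPHA4, an ephrin receptor in the window of PAX3, was higher (2.09) beside a PAX3 that did not pass. FOXD3 had 17 neighbours with a median of 0.0057, of which 2, CACHD1 and DNAJC6, were higher and 0 lower, against 4.07% and 3.45% of all tested genes. By adjusted p only, ALG6, 42.4 kb from FOXD3, and USP1 were lower (-0.39 and -0.41), and PGM1 and PATJ were higher (0.32 and 0.34). The fall of FOXD3 was thus not shared by a neighbour at both thresholds, though ALG6 and USP1 were lower by adjusted p. SOX5 differed, since 10 of its 15 neighbours were called higher and 0 lower, against 4.07% of all tested genes called higher. Among them was LDHB (1.05), a subunit of lactate dehydrogenase. All 15 changes were positive, the lowest being 0.31, and their median of 1.01 was close to the 0.94 of SOX5 itself.

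**Figure D5:**
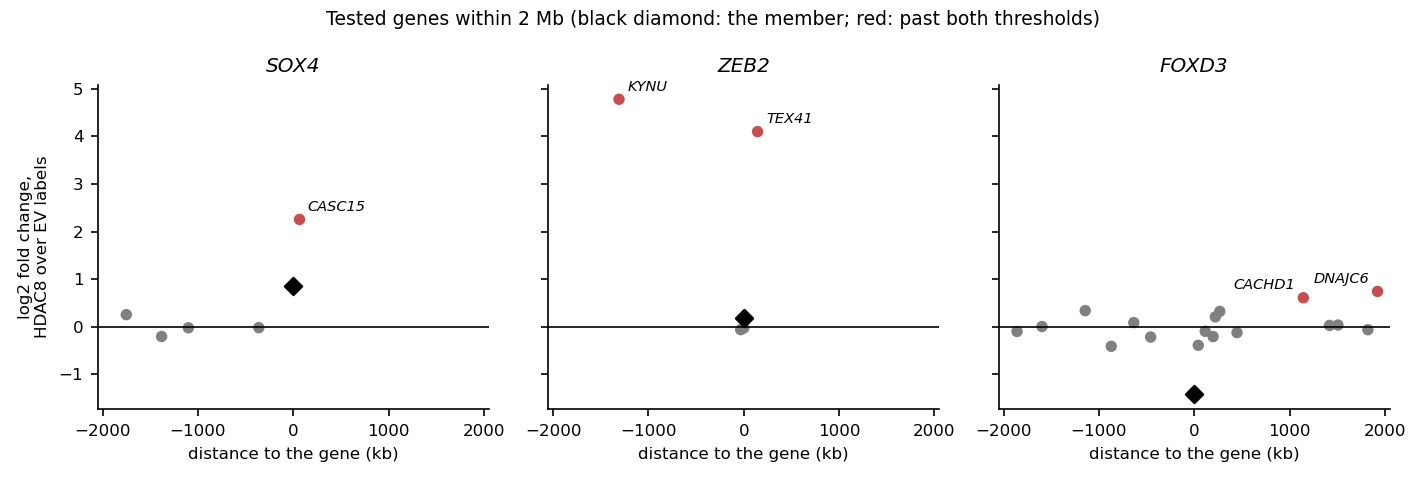
Log2 fold change (vertical axis, libraries labelled HDAC8 over EV) of tested genes against their distance in kb from SOX4, ZEB2 and FOXD3 (horizontal axis, 0 at the member, black diamond), with genes past both thresholds in red. CASC15 (2.25) stands above the other neighbours of SOX4, and TEX41 (4.10) and KYNU (4.78) above those of ZEB2, while FOXD3 (-1.42) lies below all 17 of its neighbours.

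Across the 6 libraries, the genes of at least 10 CPM whose log2 level followed SOX4 most closely were RPS15A and RPS4X, both ribosomal proteins (Pearson r 0.998 each), and ATP2B1, a calcium pump (0.994). For FOXD3 they were ADGRE5, an adhesion receptor (0.998), SLC24A1, a cation exchanger (0.997), and RAP2A, a small GTPase (0.997). With 6 libraries in 2 groups these values largely follow the difference between the groups and are descriptions. ADGRE5 fell from 14.4 ± 1.43 to 6.18 ± 0.493 CPM (SD, n = 3, log2 fold change -1.22), close to FOXD3 in size, whereas RPS15A changed by 0.28 against 0.85 for SOX4.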

How the data were processed

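The deposited table holds the authors' estimated counts, not normalized, by Ensembl identifier. The methods describe trimming (Trimmomatic), alignment to transcripts (STAR) and quantification (RSEM), and the submitters' notes name GRCh38. The annotation and the strand setting are not given in the sources used here, and the labels and methods name different RNA and library kits. A second deposited table, which holds the authors' fold changes and p-values, was not used. Between 5351 and 5685 values per library were not whole, and counts were rounded.

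All 6 libraries were fitted with edgeR 4.0.16 under R 4.3.3 (filterByExpr, TMM, then glmQLFit and glmQLFTest without a block), with Benjamini-Hochberg adjustment over 16195 genes. CPM was scaled by TMM. SE was derived from the F statistic. Ratios used exact permutation. Scripts were tested on simulated data. The members and gene lists were chosen with earlier results of these data known. All members were named, and from other lists at most 6 called genes of at least 1 CPM with the largest change, MITF, CDH1, CDH2 and VIM, and the 3 genes most like each called member. Not every gene under this rule is reported here. No pair of replicates agreed within sampling noise. Alternatives were DESeq2 1.42.0, other scalings, filters and thresholds, the block, and each library left out.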

Additional observations from a re-analysis of the deposited data

How the results depend on the processing

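SOX4 stayed higher and FOXD3 lower at both thresholds with DESeq2, upper-quartile scaling, library totals only (added after the data were seen), no filter on low counts, at least 10 counts in every library, glmTreat and each library left out. Over these the log2 fold change of SOX4 lay between 0.75 and 0.93 and that of FOXD3 between -1.53 and -1.32. With no fold threshold 4 members were higher and 2 lower and 3681 genes were called in all, and with a log2 threshold of 1 the members were 0 higher and 1 lower and 700 genes were called. glmTreat called 553 genes in place of 1218. At an unadjusted p, also added after the data were seen, 1560 genes were called. SOX10 and TFAP2A kept an adjusted p below 0.05 under the same alternatives apart from glmTreat, which tests against the fold threshold. The cause of the lost calls of SOX9 and ZEB2 was not tested. With each library left out, the difference in the SOX10 to SOX9 ratio ran from -0.090 to 0.021, and it turned positive without HDAC8 replicate 2, where it was 0.021. That of the ZEB2 to ZEB1 ratio ran from 0.26 to 0.47.

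Libraries of the same number did not deviate together (correlations of -0.049, -0.12 and -0.076), so no pairing by number was seen. Weak correlations cannot exclude that they were cultured or prepared together, which the labels do not state. With the replicate number as a replicate block, 1 member was higher and 1 lower and 1098 genes were called. The ratio differences were -0.023 for SOX10 to SOX9 (exact sign-flip p = 0.75) and 0.37 for ZEB2 to ZEB1 (exact sign-flip p = 0.25, the smallest this test can give here).

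With 3 libraries a group, FOXD3 at 51 to 195 counts is the member measured with the least precision among those tested, and SOX2 and CDH1 are below what this depth can compare.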
